A study of Mus with 2 samples.

Results

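The platelet-derived growth factor (PDGF) family was followed across the cell classes of newborn mouse kidneys. Its members here are the ligand genes Pdgfa, Pdgfb, Pdgfc and Pdgfd and the receptor genes Pdgfra and Pdgfrb, taken by symbol, 6 of the 28693 features counted. All 6 carried transcripts in both libraries and passed the filter on low counts in the comparison of cell classes. Single-cell RNA libraries were made from whole kidneys at P0, the day of birth, on the 10x Chromium platform, which tags the 3' ends of transcripts with unique molecular identifiers (UMIs). Both libraries, called replicates 1 and 2, came from mice of the genotype Rbpj c/- ; Foxd1cre/+, with no further treatment named. Foxd1Cre acts in the progenitors of the renal interstitium and its descendants, which include mesangial and mural cells, and removes the floxed Rbpj allele there. Endothelial and nephron cells derive largely from other progenitors and keep 1 conditional allele beside the null allele wherever Cre has not acted. Whether it had acted in any gated cells, podocytes included, was not tested. Control libraries (Rbpj c/+ ; Foxd1cre/+) are part of the design and were not analysed here, so each comparison below is between cell classes of mutant kidneys and none measures an effect of the deletion. Strain and sex were not given, and the labels do not say whether a library was 1 animal or a pool. With the library as a block, p-values rest on how far differences between gates varied between these libraries, pooled over gates and genes. This variation may be technical, and p-values do not measure the spread between animals.

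PDGFs are secreted dimers that act on neighbouring cells through the receptor tyrosine kinases PDGFRα and PDGFRβ. PDGF-A and PDGF-C signal mainly through PDGFRα, PDGF-B binds both receptors, and PDGF-D acts mainly through PDGFRβ. In the developing kidney, endothelial PDGF-B recruits PDGFRβ-bearing mesangial cells and pericytes to the capillaries, and PDGFRα is a standard label of interstitial fibroblasts.

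Replicate 1 held 163405630 UMIs and replicate 2 held 135436576, and 6220 and 5149 barcodes had at least 2000 UMIs and at most 10% mitochondrial UMIs. Cells were gated on marker lists that hold no PDGF gene. The endothelial gate took 779 and 511 cells, the mural gate (cells with smooth muscle genes, Rgs5 or Ren1) 45 and 27, and the stromal gate 1190 and 1046. The nephron gates took nephron progenitors (848 and 908), early nephron structures (744 and 659), podocytes (493 and 353), proximal tubule (262 and 204), loop of Henle (120 and 109) and distal tubule (17 and 15). Ureteric, immune and erythroid cells were gated for comparison, and 848 and 655 cells fell in no gate. The 10 leading genes of each of the 11 gates with at least 20 cells per library held markers of that gate and none of the other 10. The gating rule sets this outcome in part, so it is no check of the gates. Those of nephron progenitors held the neural marker Elavl4. The mural gate was led by Actg2, Myh11, Cnn1, Tnnt2 and Ren1. Its marker Rgs5 was not among the leading genes, so its values are not shown to be those of pericytes. Of the mural cells, 17 and 12 lay near the score limit. Rbpj itself stood at 26.7 and 24.6 CPM (UMIs of a gene per 1000000 UMIs of the gate) in stromal cells and 42.0 and 45.4 CPM in endothelial cells, which is no check of the deletion because counts from 3' ends do not show the loss of an internal exon. Only 6 barcode sequences occurred in both libraries. Throughout, values joined by "and" are replicates 1 and 2 in that order, and intervals cover counting error only.

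On the mouse build GRCm38.p6, RefSeq places Pdgfa (ENSMUSG00000025856) at chr5:138976014-139000792 and Pdgfra (ENSMUSG00000029231) at chr5:75151322-75198206. Pdgfb (ENSMUSG00000000489) lies at chr15:79995865-80024614, Pdgfc (ENSMUSG00000028019) at chr3:81036416-81214040 and Pdgfd (ENSMUSG00000032006) at chr9:6168363-6534284. Pdgfrb (ENSMUSG00000024620) lies at chr18:61045127-61085067. These are the spans of whole genes, and the UMI tables do not tell which transcript of a gene was tagged.

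Most members were concentrated in 1 or 2 cell classes. Pdgfb was highest in endothelial cells, Pdgfa in early nephron structures and the loop of Henle, Pdgfc in nephron progenitors, Pdgfra in stroma, and Pdgfrb in mural cells and stroma. Pdgfd had its upper levels in mural, endothelial, loop of Henle and stromal cells. The plot of levels by cell class shows these orders.

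**Figure D1:**
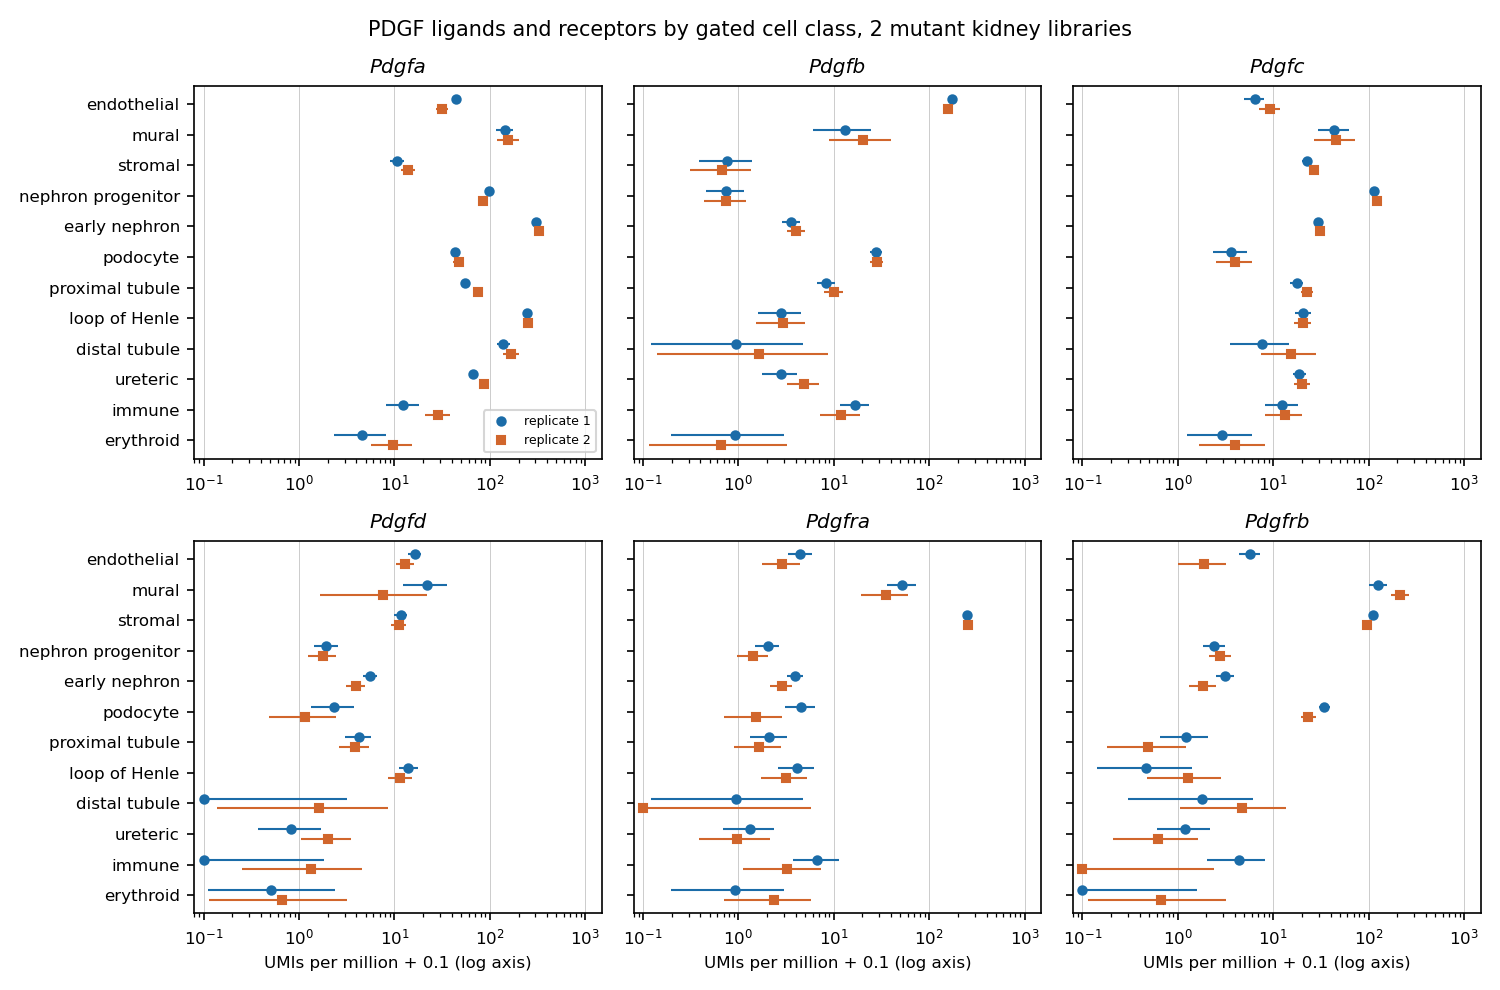
Levels of the 6 PDGF genes in 12 gated cell classes, as CPM plus 0.1 on a log axis, with 1 point per library (circles replicate 1, squares replicate 2) and bars for exact Poisson 95% intervals. Pdgfb stands at 174 and 158 CPM in endothelial cells, Pdgfra at 246 and 254 CPM in stroma, and a point at the left edge marks a gate with no UMI.

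Pdgfb, the ligand that endothelium sends to mural and mesangial precursors, stood at 173.9 CPM (95% interval 166 to 182) and 158.3 CPM (149 to 168) in endothelial cells. A Pdgfb UMI was found in 55.5% and 54.6% of endothelial cells, at median depths of 8636 and 9050 UMIs, and in 36.3% and 35.9% after each cell was thinned to 4000 UMIs. Erythroid cells, which should lack the gene, had a UMI in 0.416% and 0.281% of cells at median depths of 4405 and 4579 UMIs. The endothelial gate held 77.1% and 68.0% of all Pdgfb UMIs in kept barcodes with 8.70% and 7.03% of all UMIs. In stroma the gene was almost absent, with 8 and 6 UMIs, or 0.658 and 0.576 CPM. Endothelial Pdgfb was higher than stromal Pdgfb by a log2 fold change of 8.05 ± 0.19 (SE; edgeR quasi-likelihood test, adjusted p = 2.578e-17), and higher than the mean of the nephron gates by 5.32 ± 0.08 (edgeR, adjusted p = 1.334e-21). These differences held their direction and threshold under every alternative that gave a value.

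Outside endothelium, Pdgfb was next highest in podocytes, the epithelial cells that cover the glomerular capillaries, at 27.4 and 27.98 CPM, with a UMI in 21.9% and 26.1% of cells. Within the nephron gates, podocyte Pdgfb was higher than the mean of the other gates by 3.28 ± 0.14 log2 (edgeR, adjusted p = 1.916e-14). Pdgfb in podocytes was 15.8% and 17.7% of its endothelial level. The summed level of the 10 endothelial markers there was 1.51% and 0.954% of theirs, with all 10 detected. The gating itself left out cells high in these markers, so their sums were held down in advance, while Pdgfb took no part in it. The part of Pdgfb carried over from endothelial cells was not tested. In immune cells Pdgfb stood at 16.6 and 11.9 CPM, or 9.52% and 7.49% of the endothelial level. The marker sums there were 0.909% and 1.12%, with the same limit. Proximal tubule cells had 8.24 and 9.90 CPM, and nephron progenitors, at 0.641 and 0.636 CPM, were as low as stroma.

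In the mural gate, Pdgfb was seen as 9 and 8 UMIs in 7 and 3 cells, with 6 of the 8 in a single cell. The levels of 13.0 and 20.2 CPM had wide intervals, 5.94 to 24.7 and 8.71 to 39.8 CPM. Mural Pdgfb was called higher than stromal Pdgfb by 4.53 ± 0.56 log2 (edgeR, adjusted p = 6.153e-06), but cells taken from Leiden clusters in place of gates gave 2.32 ± 1.155 (edgeR, adjusted p = 0.2388). Of the 10 endothelial markers, 8 and 7 were detected in the mural gate at 2.25% and 1.52% of their endothelial level. Cdh5 and Tie1 were at 0 in both libraries, and Kdr was at 0 in replicate 2. These markers were used in the gating, which holds their levels down here too.

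Within the endothelium, arterial cells (93 and 72, gated on genes such as Gja5, Cxcl12 and Bmx) were set against capillary plexus cells (585 and 374, gated on Aplnr, Nr2f2, Nrp2 and Plvap). Pdgfb stood at 334.8 and 343.7 CPM in arterial cells and 146.1 and 115.9 CPM in plexus cells. Both libraries were thus higher in arterial cells, by 1.31 ± 0.12 log2 (edgeR, adjusted p = 2.991e-05). Of the 6 members, 3 were called in this comparison, all higher in arterial cells, against 19.4% of all genes tested (9.52% higher). The fit over these 4 sums had 1 residual degree of freedom.

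Pdgfd, the ligand that is cut to its active form outside the cell, was the second member called higher in arterial cells. Its level was 81.9 and 63.2 CPM there and 7.97 and 4.34 CPM in the plexus, a difference of 3.48 ± 0.22 log2 (edgeR, adjusted p = 3.492e-06). A Pdgfd UMI was found in 45.2% and 37.5% of arterial cells and in 0.208% and 0.281% of erythroid cells. After thinning, 16.5% and 15.9% of arterial cells held both Pdgfb and Pdgfd, beside 13.6% and 16.9% from the product of the single shares. Pdgfc was the third, at 19.1 and 33.3 CPM in arterial and 5.05 and 5.85 CPM in plexus cells, a difference of 2.145 ± 0.34 log2 (edgeR, adjusted p = 0.001306). Pdgfa was not called between them, at 41.9 and 23.0 CPM in arterial and 46.7 and 34.5 CPM in plexus cells (-0.38 ± 0.20 log2, edgeR adjusted p = 0.2443).

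Across the whole gates Pdgfd was not called between endothelium and stroma or mural cells. It stood at 16.2 and 12.9 CPM in endothelial cells, 11.5 and 10.95 CPM in stroma, and 13.9 and 11.4 CPM in the loop of Henle. The mural level of 21.7 and 7.57 CPM rests on 15 and 3 UMIs, so its intervals of 12.1 to 35.7 and 1.56 to 22.1 CPM overlap those of the other 3 classes. In replicate 1 the endothelial interval (13.93 to 18.79 CPM) lay above the stromal one (9.69 to 13.59 CPM). Endothelial minus stromal Pdgfd was 0.39 ± 0.24 log2 (edgeR, adjusted p = 0.196), and it passed the threshold, at 0.998 (edgeR, adjusted p = 0.003376), only with a mitochondrial limit of 5%. The gene was lower in most nephron gates, between 1.06 and 5.43 CPM outside the loop of Henle and the distal tubule. Within the nephron gates the loop of Henle was higher than the others by 2.12 ± 0.24 log2 (edgeR, adjusted p = 2.779e-07).

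Pdgfa, the main ligand of PDGFRα, was highest in early nephron structures and the loop of Henle. Early nephron structures, which include the renal vesicle and S-shaped body, had 307 and 329 CPM, with a UMI in 88.8% and 92.7% of cells, against 2.08% and 2.53% of erythroid cells. The loop of Henle followed at 245 and 252.5 CPM, and the mural gate and the distal tubule at 142.9 and 156.4 and at 138.1 and 166.3 CPM, which overlapped. Nephron progenitors had 97.6 and 84.6 CPM, ureteric cells 67.2 and 87.4 CPM, proximal tubule 54.3 and 76.0 CPM and podocytes 43.5 and 46.9 CPM. The nephron gates together held 77.3% and 78.9% of all Pdgfa UMIs, with 57.45% and 60.36% of all UMIs, and early nephron cells alone held 48.6% and 49.85% with 20.3% and 20.3%. Stroma, where the receptor lay, had the lowest Pdgfa outside the erythroid gate, at 10.6 and 13.8 CPM.

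Pdgfa was lower in stroma than in the mean of the nephron gates by a log2 fold change of -3.18 ± 0.17 (edgeR, adjusted p = 1.457e-12). It was higher in mural cells than in stroma by 3.52 ± 0.29 log2 (edgeR, adjusted p = 2.451e-08), from 99 and 62 UMIs found in 32 and 19 of the mural cells. Endothelial cells, at 43.9 and 31.4 CPM, lay above stroma by 1.68 ± 0.21 log2 (edgeR, adjusted p = 7.953e-07). Early nephron structures were higher than the other nephron gates by 1.70 ± 0.11 log2 (edgeR, adjusted p = 8.291e-11) and the loop of Henle by 1.27 ± 0.12 log2 (edgeR, adjusted p = 1.626e-08). Podocytes and proximal tubule were lower, by -1.73 ± 0.15 and -0.93 ± 0.14 log2 (edgeR, adjusted p = 3.193e-09 and 6.497e-06).

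Pdgfc, a second ligand of PDGFRα that is secreted in a latent form, was concentrated in nephron progenitors. Their level was 114.4 CPM (95% interval 110 to 119) and 123.2 CPM (118 to 128), with a UMI in 78.5% and 77.6% of cells and in 1.247% and 1.404% of erythroid cells. The next levels were 43.3 and 45.4 CPM in mural cells, 29.6 and 30.8 CPM in early nephron structures and 22.5 and 26.6 CPM in stroma. In both libraries progenitors were the highest and podocytes, at 3.54 and 3.90 CPM, the lowest of the nephron gates. Progenitors were higher than the other nephron gates by 3.13 ± 0.07 log2 (edgeR, adjusted p = 3.862e-18), and podocytes were lower by -3.255 ± 0.15 log2 (edgeR, adjusted p = 6.6e-14). Nephron progenitors held 52.5% and 56.6% of all Pdgfc UMIs with 18.55% and 21.09% of all UMIs.

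Within the stroma, Pdgfc was highest in the cortical cells, those with Foxd1, Ntn1 and Fibin, that surround the progenitors. It stood at 44.8 and 43.1 CPM in cortical stroma and at 5.68 to 18.7 CPM over the other sub-gates and libraries, so the groups did not overlap. Cortical Pdgfc was 39.2% and 35.0% of the progenitor level, while the progenitor markers Six2, Cited1 and Eya1 stood between 0 and 1.03% of theirs. The 6 progenitor markers summed to 10.5% and 9.55%, most of it from Gdnf, which was higher in cortical stroma than in progenitors (448.7% and 642.5%). These markers were used in the gating, which holds their levels in stroma down, while Pdgfc was not used. Cortical cells were higher than the mean of the other stromal sub-gates by 2.18 ± 0.22 log2 (edgeR, adjusted p = 2.21e-08). Mesangial stroma was lower, at 6.53 and 5.68 CPM (-1.34 ± 0.38 log2, edgeR adjusted p = 0.01646), and that call was lost with DESeq2 (adjusted p = 0.1081). Between whole compartments, stromal minus nephron Pdgfc was 0.21 ± 0.09 log2 (edgeR, adjusted p = 0.04581), and 9 of 10 alternatives left it short of the threshold.

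Pdgfra, the receptor for PDGF-A and PDGF-C, had the largest share of its UMIs in a single gate among the 6 members. Stroma had 246 CPM (95% interval 238 to 255) and 254 CPM (245 to 264), with a UMI in 82.9% and 79.5% of cells at median depths of 9651.5 and 9315 UMIs. Erythroid cells had a UMI in 0.416% and 1.12% of cells. The stromal gate held 82.3% and 86.3% of all Pdgfra UMIs with 9.64% and 10.8% of all UMIs. Apart from the mural gate, every other gate lay at or below 6.62 CPM. Stroma was higher than the nephron mean by 6.71 ± 0.10 log2 (edgeR, adjusted p = 4.897e-21) and endothelium was lower than stroma by -6.08 ± 0.18 log2 (edgeR, adjusted p = 2.595e-16). Pdgfra was among the 10 leading genes of the stromal gate, although it had no part in the gating.

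The mural gate had 52.0 and 35.3 CPM of Pdgfra, below stroma by -2.59 ± 0.22 log2 (edgeR, adjusted p = 3.954e-08). Its 36 and 14 UMIs came from 8 and 4 cells, with 13 and 7 of them in a single cell. The summed stromal markers in the mural gate were 27.7% and 41.6% of their stromal level, all 10 detected, and Pdgfra was 21.1% and 13.9% of its own. The stromal markers were used in the gating, which holds their sums down, while Pdgfra was not used. The part of stromal transcripts in the mural Pdgfra was not tested.

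Pdgfrb, the receptor for PDGF-B and PDGF-D, was shared between mural cells and stroma. Mural cells had 125.6 and 214.4 CPM from 87 and 85 UMIs, with a UMI in 53.3% and 66.7% of cells. Stroma had 112.3 and 95.7 CPM, with a UMI in 60.9% and 54.3% of cells, and erythroid cells held 0 and 1 UMI. Mural minus stromal Pdgfrb was 0.51 ± 0.26 log2 (edgeR, adjusted p = 0.2123), so a difference was not called although the intervals separated in replicate 2 (171 to 265 against 89.9 to 102 CPM). Leaving out the filter on low counts brought it past the threshold at 0.53 ± 0.17 (edgeR, adjusted p = 0.01634), while Leiden clusters in place of gates gave -0.35 (edgeR, adjusted p = 0.5268). The value was 1.0 without replicate 1 and 0.09 without replicate 2. Stroma exceeded the nephron mean by 5.45 ± 0.17 log2 (edgeR, adjusted p = 2.647e-16) and mural cells did so by 5.96 ± 0.35 log2 (edgeR, adjusted p = 3e-11).

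Endothelial cells had few Pdgfrb transcripts, 61 and 12 UMIs, or 5.56 and 1.76 CPM, and 18 of the 61 lay in a single cell. Endothelium was lower than stroma by -4.70 ± 0.27 log2 (edgeR, adjusted p = 7.103e-12) and lower than mural cells by -5.21 ± 0.37 log2 (edgeR, adjusted p = 1.167e-09). Without replicate 1 these differences were -5.76 and -6.76 log2. After thinning, 0.436% and 0.219% of endothelial cells held both Pdgfb and Pdgfrb, beside 0.370% and 0.0785% from the product of the single shares.

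Podocytes were the third site of Pdgfrb, at 34.4 and 23.4 CPM from 233 and 132 UMIs in 85 and 55 cells. They exceeded the other nephron gates by 4.375 ± 0.27 log2 (edgeR, adjusted p = 1.793e-11). The stromal markers summed to 9.30% and 10.3% of their stromal level in podocytes, with all 10 detected, while Pdgfrb was 30.6% and 24.4% of its stromal level and Pdgfra 1.80% and 0.558%. The 10 mural markers there summed to 1.96% and 3.50% of their mural level, with Ren1 at 0 in both libraries. Both marker lists were used in the gating, which holds their sums down, while the receptors were not used. Whether these markers and Pdgfrb came from the same source was not tested. In the other nephron gates Pdgfrb lay between 0.362 and 4.58 CPM.

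**Figure D2:**
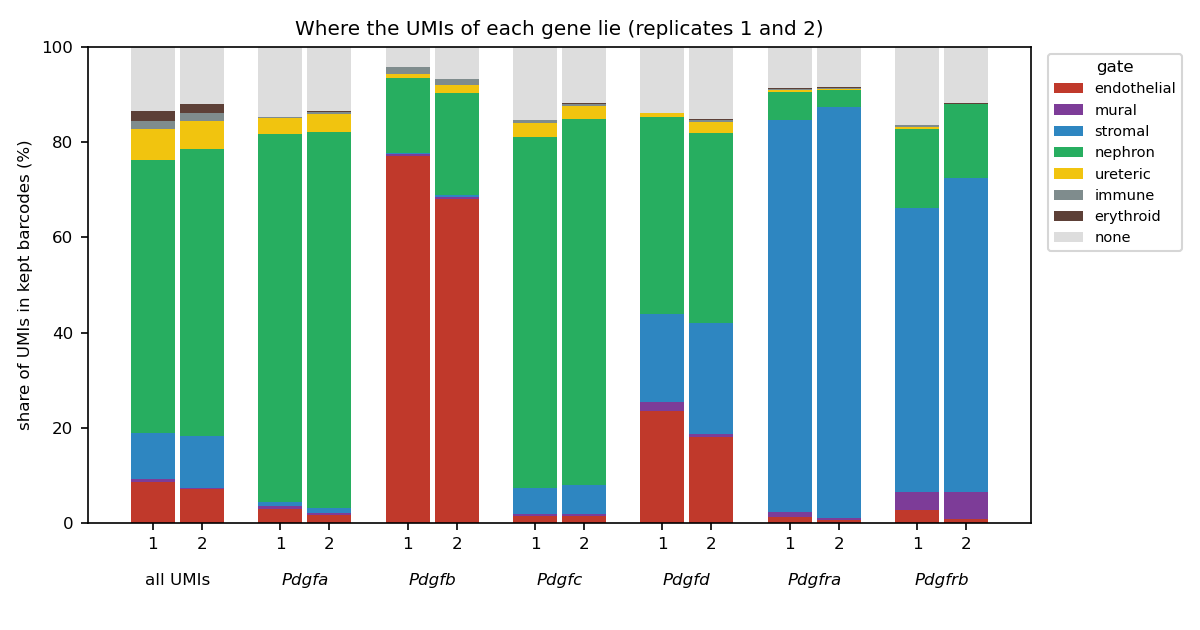
Share of each gene's UMIs that lay in each gate, in percent of the UMIs in kept barcodes, with 1 bar per library and all UMIs at the left for reference. Endothelial cells hold 77.1% and 68.0% of Pdgfb, and stroma 82.3% and 86.3% of Pdgfra but 59.7% and 66.1% of Pdgfrb.

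The balance of the receptors differed between cell classes. Pdgfrb made up 31.3% (95% exact binomial interval 29.95 to 32.72%) and 27.4% (25.92 to 28.85%) of the receptor UMIs in stroma. In mural cells it made up 70.7% (61.85 to 78.59%) and 85.9% (77.41 to 92.05%), and in podocytes 88.6% (84.12 to 92.17%) and 94.3% (89.05 to 97.5%). The intervals of stroma lay below those of both other classes in each library. The share compares counts of different transcripts and is no ratio of receptor proteins.

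In stroma many cells held both receptors. After thinning to 4000 UMIs, 23.6% and 19.2% of 1147 and 1001 stromal cells had a UMI of each, 33.65% and 40.66% of Pdgfra only and 13.0% and 11.1% of Pdgfrb only. The product of the single shares was 21.0% and 18.1%, close to the cells with both. In mural cells 4.65% and 3.70% of 43 and 27 cells had both, and 23.3% and 37.0% had Pdgfrb only. At this depth a missing UMI does not show that a transcript was absent.

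**Figure D3:**
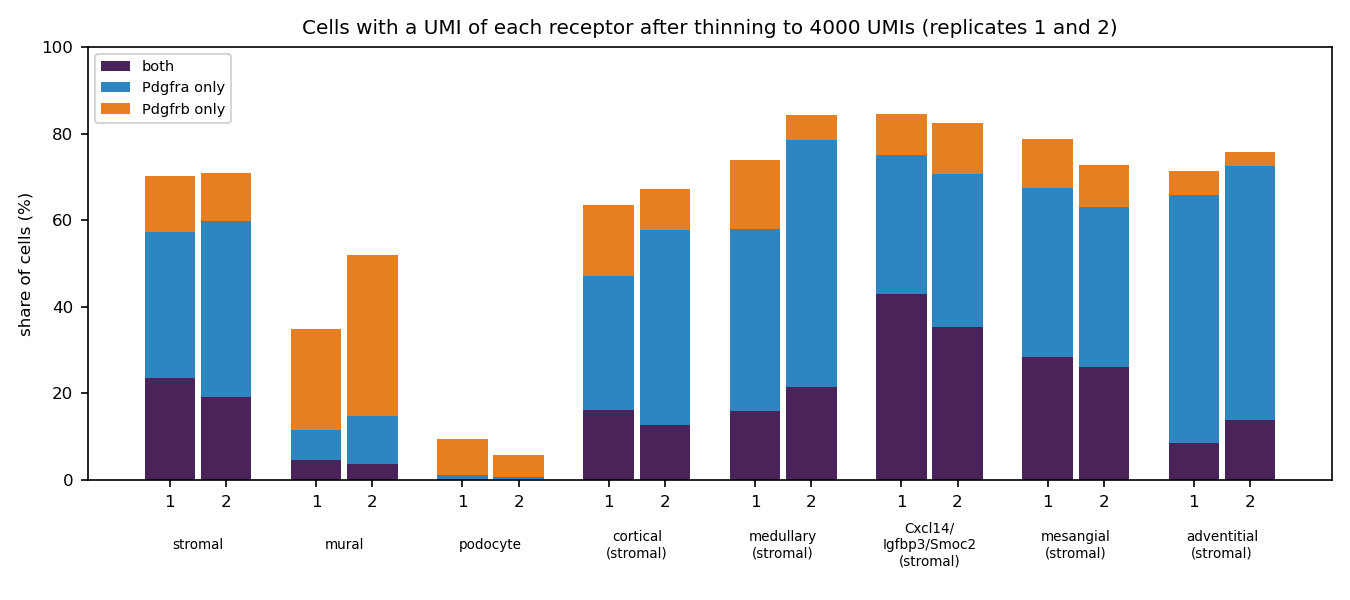
Share of cells, in percent, with a UMI of Pdgfra, Pdgfrb or both after each cell was thinned to 4000 UMIs, for stroma, mural cells, podocytes and 5 stromal sub-gates, with 1 bar per library. Stromal cells with both receptors make up 23.6% and 19.2%, and podocytes with Pdgfrb only make up 8.18% and 5.25%.

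Stromal cells were divided into cortical (302 and 285 cells), medullary (51 and 51), mesangial (172 and 107) and adventitial (38 and 29) sub-gates and a sub-gate defined by Cxcl14, Igfbp3 and Smoc2 (91 and 76). The last was left without a cell type name because its leading genes mixed these with Slpi and Upk3b and with the smooth muscle genes Myh11 and Lmod1. Of the 25 member values tested within the stroma, 14 were called, with Pdgfb too low to be tested. The background shares of called genes were 35.9% for cortical, 12.5% for medullary, 16.8% for mesangial, 25.5% for adventitial and 10.4% for Cxcl14/Igfbp3/Smoc2 cells. Each sub-gate was set against the mean of the other 4, except where a sentence names another contrast.

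Pdgfra was present throughout the stroma, with 203 and 230 CPM in cortical cells and 400.1 and 368.8 CPM in adventitial cells, the fibroblast layer around vessels. Medullary cells had 299.1 and 508.3 CPM, the widest gap between libraries, and mesangial cells 274.8 and 256.4 CPM. Cortical cells were lower than the other sub-gates by -0.71 ± 0.12 log2 (edgeR, adjusted p = 7.405e-05). Under a stricter gate only cortical and mesangial cells were numerous enough to be fitted, and cortical minus mesangial Pdgfra was then -0.18 (edgeR, adjusted p = 0.5389), a different contrast. Medullary and adventitial cells were called higher by 0.43 ± 0.14 and 0.46 ± 0.15 log2 (edgeR, adjusted p = 0.04025 and 0.02952). Both of these calls were lost with DESeq2 (adjusted p = 0.2359 and 0.07757), and the medullary value was -0.04 without replicate 2.

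Pdgfrb ran differently over the same cells. It was lowest in adventitial cells, at 29.2 and 37.6 CPM from 10 and 11 UMIs, and stood at 143.7 and 137.7 CPM in Cxcl14/Igfbp3/Smoc2 cells and 127.9 and 115.4 CPM in mesangial cells. Adventitial cells were lower by -1.57 ± 0.26 log2 (edgeR, adjusted p = 4.039e-05), Cxcl14/Igfbp3/Smoc2 cells were higher by 0.95 ± 0.15 (edgeR, adjusted p = 4.488e-05) and mesangial cells were higher by 0.63 ± 0.13 (edgeR, adjusted p = 0.001251). Under a stricter gate and under a mitochondrial limit of 5%, where only mesangial and cortical cells could be fitted, mesangial minus cortical Pdgfrb was 0.47 and 0.45 (edgeR, adjusted p = 0.1058 and 0.06594). Pdgfrb was 6.80% and 9.24% of the receptor UMIs in adventitial cells, against 31.8% and 31.0% in mesangial and 32.2% and 24.8% in cortical cells. In medullary cells it was 23.3% and 12.5%, and the replicate 2 interval (9.07 to 16.7%) overlapped the adventitial one (4.705 to 15.9%). Adventitial cells thus had high Pdgfra and low Pdgfrb in both libraries.

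The ligands Pdgfd and Pdgfa also differed between stromal sub-gates, and all Pdgfa levels there lay below its level in near-empty barcodes (83.8 and 76.2 CPM). Pdgfd stood at 52.6 and 23.9 CPM in adventitial cells, from 18 and 7 UMIs, and at 24.25 and 26.16 CPM in medullary cells, so adventitial cells were the highest in replicate 1 only. Adventitial cells exceeded the mean of the other sub-gates by 1.63 ± 0.38 log2 (edgeR, adjusted p = 0.001907), which was 0.94 without replicate 1. Pdgfa was highest in medullary cells, at 24.25 and 50.45 CPM from 12 and 27 UMIs, an excess of 1.77 ± 0.36 log2 (edgeR, adjusted p = 9.114e-04) that was 1.15 without replicate 2. Of those 27 UMIs, 12 were in a single cell. In Cxcl14/Igfbp3/Smoc2 cells Pdgfa stood at 22.9 and 36.1 CPM, 1.325 ± 0.35 log2 above the other sub-gates (edgeR, adjusted p = 0.01212), and the call was lost with DESeq2 (adjusted p = 0.05978).

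**Figure D4:**
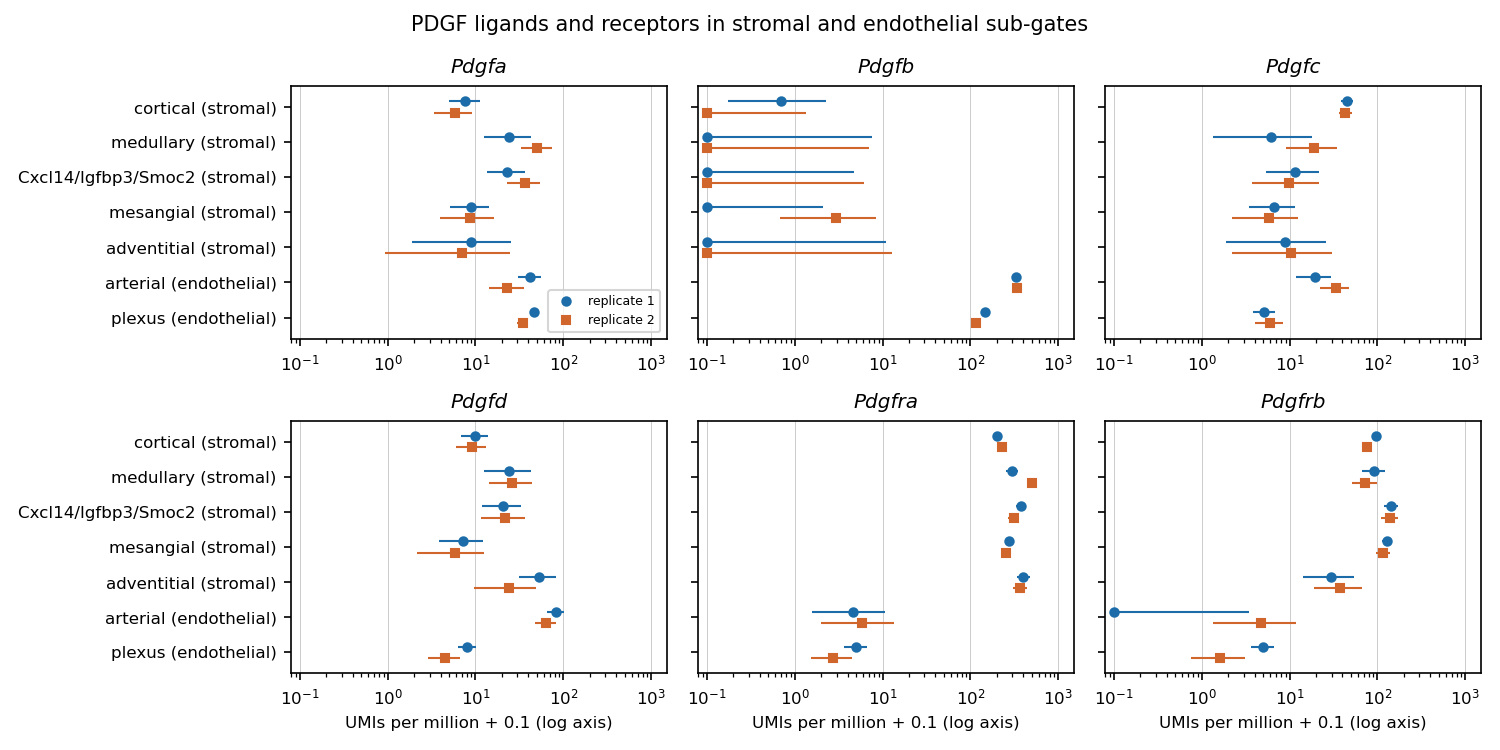
Levels of the 6 PDGF genes in 5 stromal and 2 endothelial sub-gates, as CPM plus 0.1 on a log axis, with 1 point per library (circles replicate 1, squares replicate 2) and bars for exact Poisson 95% intervals. Pdgfc is highest in cortical stroma at 44.8 and 43.1 CPM, Pdgfrb is lowest among stromal sub-gates in adventitial cells, and Pdgfb and Pdgfd are higher in arterial than in plexus cells.

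The 4 compartments were then compared in pairs over all members. Between endothelium and stroma 5 of 6 members were called, where 51% of all genes tested were called, and 2 were higher (25.7% of genes) and 3 lower (25.3%). Between mural cells and stroma 3 were higher (8.01% of genes) and 1 lower (8.55%), against 16.6% of genes called in all. Between endothelium and mural cells 1 was higher (14.1%) and 4 lower (11.8%), against 25.8% in all. All 6 members differed between stroma and nephron, 4 higher (33.5% of genes) and 2 lower (29.1%), in a comparison that called 62.6% of genes. Mural cells exceeded nephron in 5 members and lay below it in 0, where 24.7% of genes were called, 14.3% higher and 10.4% lower. Endothelium exceeded nephron in 3 members (33.2% of genes) and lay below it in 2 (30.3%), with 63.4% of genes called. With Leiden clusters in place of gates, 2 members were called between mural cells and stroma and 2 between mural cells and nephron.

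Of these 36 values 30 were called. Pdgfrb, Pdgfa and Pdgfd gave those that were not, including Pdgfa between mural cells and nephron (0.34 ± 0.21 log2, edgeR adjusted p = 0.2814) and Pdgfd between endothelium and mural cells (-0.02 ± 0.44 log2, edgeR adjusted p = 0.9978). The latter interval is wide and does not show that the levels were alike. Endothelial Pdgfra was called above the nephron mean by 0.63 ± 0.25 log2 (edgeR, adjusted p = 0.03624) at 4.38 and 2.79 CPM, and 6 of 10 alternatives did not call it.

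**Figure D5:**
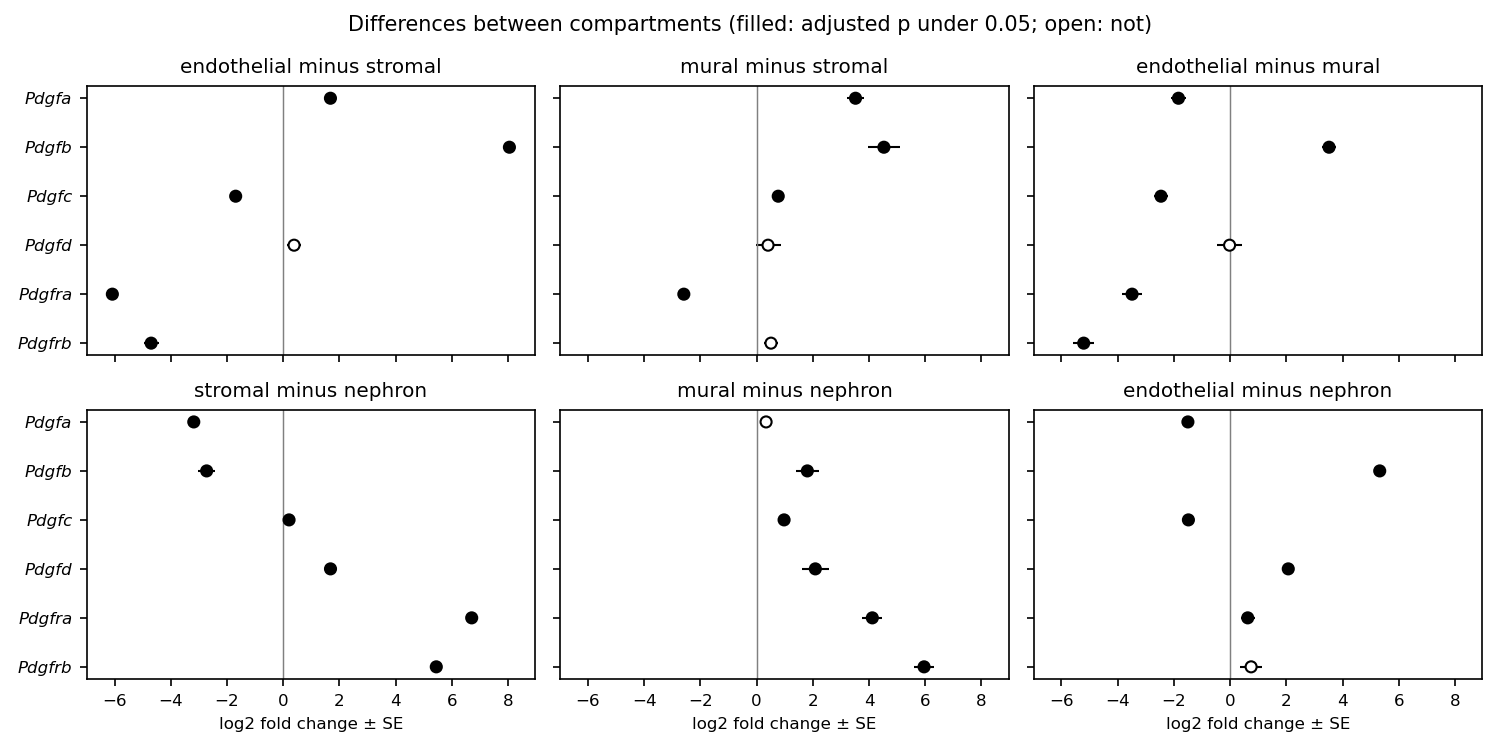
Log2 fold changes of the 6 PDGF genes between 4 compartments in 6 pairs, with SE bars from the edgeR fit, where filled points passed an adjusted p of 0.05 and open points did not. Endothelium minus stroma spans the widest range, from 8.05 for Pdgfb to -6.08 for Pdgfra.

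Within the nephron gates 20 of 30 member values were called. The shares of all genes called were 62.9% for progenitors, 53.2% for early nephron structures, 61.6% for podocytes, 57.4% for proximal tubule and 46.9% for the loop of Henle, so the member counts lay near the background. Besides those given above, Pdgfb was lower in progenitors by -3.33 ± 0.23 log2 (edgeR, adjusted p = 7.94e-11) and higher in proximal tubule by 1.42 ± 0.16 (edgeR, adjusted p = 2.494e-07). Ureteric cells, the collecting duct lineage, differed from the nephron mean in 3 members, all lower, where 43.4% of genes were called and 17.7% were lower. These were Pdgfa (-0.65 ± 0.13 log2, edgeR adjusted p = 4.738e-04), Pdgfra and Pdgfd, both of the latter from 11 UMIs or fewer per library. The Pdgfra call (-1.29 log2) was lost with Leiden clusters (-0.32), with Scrublet doublets removed (-0.81) and with barcodes over 50000 UMIs left out (-0.65). The Pdgfd call (-1.63 log2) was lost with those deep barcodes left out (-1.01), and replicate 2 alone gave -0.75 and replicate 1 alone -2.54.

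The other genes of the pathway were read from a list of 35 genes that process, bind or transmit PDGF signals. Between stroma and nephron 19 were higher and 7 lower, with a median of 0.25 log2 against 0.00386 for all genes tested, and 74.3% of the list was called against 62.6% of all genes. Between endothelium and stroma 19 were higher and 10 lower (median 0.43, all genes -0.00312), and between endothelium and nephron 22 and 8 (median 0.62, all genes -0.02). Counts with the mural gate were smaller, 4 higher and 3 lower against stroma (median -0.35, all genes -0.15), 7 and 5 against nephron (0.06, all genes -0.15), and 16 higher and 3 lower for endothelium against mural cells (0.70, all genes 0.16). The share of the list called was 82.9% for endothelium against stroma, where 51% of all genes were called, and 85.7% for endothelium against nephron, where 63.4% were. It was 54.3% against 25.8% of all genes for endothelium and mural cells, and 34.3% against 24.7% for mural cells and nephron. For mural cells and stroma it was 20% against 16.6%, near the background.

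Lrp1, an endocytic receptor that binds the PDGF receptor complex, was higher in stroma than in mural cells and endothelium. It stood at 191.9 and 184.4 CPM in stroma, 99.6 and 70.6 CPM in mural cells and 6.93 and 4.11 CPM in endothelium. Stroma exceeded nephron by 3.29 ± 0.09 log2 (edgeR, adjusted p = 1.042e-17) and endothelium lay below stroma by -5.02 ± 0.16 log2 (edgeR, adjusted p = 1.029e-15). Fyn and Yes1, Src-family kinases that PDGF receptors engage, were higher in endothelium. Fyn had 168.8 and 168.9 CPM there against 32.7 and 28.9 CPM in stroma (2.465 ± 0.12 log2, edgeR adjusted p = 2.921e-13), and Yes1 had 137.6 and 146.4 CPM against 23.1 and 27.7 CPM in mural cells (2.62 ± 0.18 log2, edgeR adjusted p = 5.342e-10).

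Sparc, Plau and St14, named for the size of their changes, code for proteins that act on the ligands outside the cell. Sparc, a secreted protein that binds PDGF-B, had 2536 and 2354 CPM in endothelium and 1559 and 1702 CPM in mural cells, above the nephron mean by 2.985 ± 0.08 and 2.28 ± 0.09 log2 (edgeR, adjusted p = 2.648e-18 and 6.266e-14). Plau, a protease that can activate PDGF-D, was low in stroma at 3.54 and 2.11 CPM. Endothelium had 13.5 and 14.7 CPM of it (2.30 ± 0.34 log2 above stroma, edgeR adjusted p = 8.618e-06) and mural cells 14.4 and 30.3 CPM from 10 and 12 UMIs. The mural difference of 2.725 ± 0.72 log2 (edgeR, adjusted p = 0.01117) was 3.67 without replicate 1 and 1.95 without replicate 2. St14, another protease of this kind, was an epithelial gene, at 72.1 and 68.4 CPM in the loop of Henle and 0.905 and 0.576 CPM in stroma (stroma minus nephron -2.95 ± 0.29 log2, edgeR adjusted p = 2.587e-08), with no UMI in mural cells.

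Slc9a3r1, a scaffold protein that binds PDGF receptors, and Ptprj, a phosphatase that removes their phosphates, were lower in stroma and in endothelium, respectively. Slc9a3r1 had 8.72 and 8.16 CPM in stroma and 289.1 and 297.2 CPM in proximal tubule, and stroma lay below nephron by -3.31 ± 0.15 log2 (edgeR, adjusted p = 6.109e-14). Mural cells lay below nephron by -2.10 ± 0.31 log2 (edgeR, adjusted p = 2.318e-05), which was -3.26 without replicate 1. Ptprj had 4.19 and 3.23 CPM in endothelium, below the nephron mean by -2.43 ± 0.16 log2 (edgeR, adjusted p = 2.949e-11) and below mural cells by -2.075 ± 0.43 log2 (edgeR, adjusted p = 9.605e-04). The calls of Ptprj between endothelium and mural cells and of Plau, Lrp1 (-1.20 ± 0.19 log2) and Fyn (0.98 ± 0.225 log2) between mural cells and stroma were each lost under at least 1 alternative.

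For each member the genes with the most similar profile were found over the 22 sums of gate and library by Pearson r of log2(CPM + 1), as a description over sums that share libraries. Pdgfra was followed most closely, by Kcnt2 (r = 0.972), Pak7 (0.968) and the collagen gene Col6a2 (0.968). Pdgfrb was followed by Serping1 (0.96), Pde3a (0.959) and Srpx (0.957), and Pdgfb by Sema7a (0.909), Vamp5 (0.866) and Cracr2b (0.854). For Pdgfa they were Greb1 (0.903), Pgbd1 (0.88) and Celsr1 (0.868), for Pdgfc Slc16a1 (0.875), Dtx1 (0.874) and Pitrm1 (0.874), and for Pdgfd they included Klf9 (0.839) and 1810011O10Rik (0.826).

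RNA outside cells was read from barcodes with 10 to 100 UMIs. These held Pdgfa at 83.8 and 76.2 CPM, Pdgfra at 44.5 and 58.1 CPM, Pdgfb at 31.4 and 42.3 CPM, Pdgfc at 17.0 and 13.3 CPM, Pdgfrb at 15.7 and 13.3 CPM and Pdgfd at 5.235 and 3.63 CPM. All 6 members were lower than that in erythroid cells, at 0 to 9.53 CPM. Several levels given above also lay below the level in these near-empty barcodes in both libraries. Among them were Pdgfb in podocytes, mural, immune and proximal tubule cells, Pdgfa in endothelial cells, podocytes, proximal tubule and all stromal sub-gates, Pdgfra in nephron gates and Pdgfrb in endothelium. The part of free RNA in these levels was not tested. In the gate with its highest mean, each member lay above its level in these near-empty barcodes in both libraries, the nearest being Pdgfd in mural cells at 21.7 and 7.57 CPM. In replicate 2 that value rests on 3 UMIs, and its interval (1.56 to 22.1 CPM) covers the near-empty level. Pdgfd was higher in endothelial cells in that library, at 12.9 CPM.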

How the data were processed

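Single-cell suspensions of kidneys were made into 3'-end libraries, per the labels' protocols. The authors deposited matrices of unnormalized UMI counts (genes by barcodes). The file headers name Cell Ranger 4, while the submitters' processing notes name Cell Ranger 6.0.1 and the build mm10. The deposited matrices hold 2720964 and 2654938 barcodes. Barcodes with at least 2000 UMIs and at most 10% mitochondrial UMIs were kept (690 and 768 failed the mitochondrial limit). Median depth was 11987.5 and 12307 UMIs, and the number of UMIs per gate sets the precision of each CPM, given with exact Poisson intervals, or exact binomial ones for shares (95%).

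Each barcode got a score per cell class, the mean of its log-scaled marker levels relative to their 90% quantile. A class needed a score of 0.2 (0.45 for mural cells, set after marker values were seen, because cells between these limits were led by genes of other cells), a lead of 1.25 times over the next class and 3 markers, or 2 for sub-gates. Barcodes between classes were left out, the only treatment of doublets in the main values. The distal tubule, with under 20 cells per library, gave levels but no test, so the nephron mean is over 5 gates. Neural markers gave 0 and 1 cells, too few for a gate.

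UMI counts were summed per gate and library and tested with edgeR 4.0.16 (TMM, quasi-likelihood F test, library as a block, Benjamini-Hochberg over all genes of a contrast, adjusted p under 0.05). The gate fit had 22 sums, 15409 genes and 10 residual degrees of freedom, and the stromal and endothelial sub-gate fits had 8919 and 11033 genes with 4 and 1. The sums of all gates of a library come from the same suspension, hence the block. On simulated counts for stroma minus nephron over 13169 genes, 98 of 100 genes changed by 1 log2 and 100 of 100 changed by 2 log2 were called, with 11 false calls among 12969 unchanged genes. The simulation gave all gates the same profile apart from these genes, with a single dispersion and no library effect. It changed no gene of low level. These rates therefore do not carry over to levels of a few CPM or to data where 62.6% of genes were called. Other tools were Python 3.11.15, scipy 1.17.1, scanpy 1.11.5, R 4.3.3 and DESeq2 1.42.0.

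Named genes were the 6 members, for each the 3 genes of highest r (1 of these is not reported here), and in each pair of compartments the 3 called pathway genes of largest change. The members, gene lists and markers were chosen with earlier results of these data known. Alternatives were Leiden clusters, a stricter gate lead, other UMI and mitochondrial limits, Scrublet, DESeq2, no low-count filter, no library block, leaving out barcodes over 50000 UMIs and leaving out each library. A mural limit of 0.2 was added after seeing the data.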

Additional observations from a re-analysis of the deposited data

How the results depend on the processing

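Of the 30 member values called between pairs of compartments, 23 kept their direction and call under every alternative that gave a value, 7 lost the call under at least 1, and 0 reversed. The lost calls were Pdgfb, Pdgfc and Pdgfd between mural cells and nephron, Pdgfb and Pdgfc between mural cells and stroma, Pdgfc between stroma and nephron, and Pdgfra between endothelium and nephron. Within compartments the calls held for 3 of 3 values in endothelium, 12 of 20 in nephron, 8 of 14 in stroma and 1 of 3 in ureteric cells. With Leiden clusters the members called were 2 for mural minus stromal and 2 for mural minus nephron, in place of 4 and 5, and with barcodes over 50000 UMIs left out 1 was called for ureteric minus nephron in place of 3.

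Among values past the threshold in the main or the alternative fit, those that turned direction were Pdgfc in proximal tubule against other nephron gates with Leiden clusters (0.53 in place of -0.07), Pdgfa in nephron progenitors (0.0104) and Pdgfra in mesangial stroma (0.37) with a mitochondrial limit of 5%, both against a smaller set of gates, and Pdgfb in the loop of Henle with barcodes over 50000 UMIs left out (0.00918). Leaving out 1 library gave -0.0448 and 0.828 for Pdgfra in medullary stroma, called at 0.43. Other values that were called in neither fit also changed sign, among them Pdgfrb for mural minus stromal with Leiden clusters (-0.35) and Pdgfrb for endothelial minus nephron without replicate 1 (-0.24). Under that limit the loop of Henle, mural, ureteric, medullary, adventitial and Cxcl14/Igfbp3/Smoc2 cells had under 20 cells in a library, and under the stricter gate the mural cells and the same 3 stromal sub-gates did. The nephron mean then lacked the loop of Henle (mitochondrial limit), and the stromal contrasts were mesangial against cortical alone (both settings), so these values are of other contrasts, and the counts of calls that held include them. For the other values that turned, the cause was not tested. Leaving out 1 library leaves no residual degrees of freedom, so these are values with no test and no count of calls could be given. The replicate block, which is the library, was dropped in a further fit: 5 values lost their call, 116 stayed on their side of the threshold and 0 reversed, with adjusted p (edgeR) of 0.1035 for Pdgfc between stroma and nephron and 0.06307 for Pdgfra between endothelium and nephron. Gates under 20 cells in a library gave no values under these settings. Depth limits the mural values, which rest on 3 to 99 UMIs per member and library, and levels of a few CPM elsewhere.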
